A study of Mus musculus with 9 samples.

Results

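Most of the 37 genes described here repair DNA by homologous recombination or the Fanconi pathway, or signal damaged DNA to the cell cycle. The other 6 serve other repair routes, such as the removal of uracil and the sensing of mismatches. All 37 were taken as a fixed list of mouse symbols, chosen with earlier results of these data known. Their counts are therefore no independent support. Each of the 37 was found among the 56980 rows of the gene count table. They fall into 8 roles. These are the BRCA axis (5 genes), end resection and break sensing (5), strand invasion factors (4), the MUS81-EME1 junction nuclease (2), the Fanconi core complex (7), the FANCD2-FANCI complex (2), checkpoint kinases and their adaptors (6), and other repair genes (6).

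Homologous recombination copies a broken stretch of DNA from the intact sister chromatid. Nucleases trim the broken ends, BRCA1, PALB2 and BRCA2 then prepare the exposed strand to invade the intact copy, and nucleases and helicases later resolve the joined molecules. The Fanconi pathway removes crosslinks between strands through a core ubiquitin ligase that marks FANCD2 and FANCI, and the kinases ATR and ATM pass damage signals to CHEK1 and CHEK2. Many of these genes are transcribed around the time of DNA replication, and their messages are known to follow the share of cycling cells in a culture.

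The libraries came from primary mouse oligodendrocyte precursor cells (OPCs), the glial progenitors that give rise to myelinating oligodendrocytes. Cells of every group carried the genotype Trp53 -/- and were kept in a defined SATO medium with 10 ng/mL PDGF-AA, the growth factor that keeps OPCs dividing. The p53n group (3 libraries) had no further agent. The BB-p53n cells express PDGF-BB, another ligand of the PDGF receptors, and received DMSO (BB-p53n DMSO, 3 libraries, the vehicle group) or tazemetostat, an inhibitor of EZH2, at 5 µM over 48 hours (BB-p53n EZH2i, 3 libraries, the inhibitor group). EZH2 is the enzyme that places the repressive H3K27 methyl mark. The labels describe neither the construct and promoter that express PDGF-BB nor whether replicates are separate cultures, so the p-values measure a spread between libraries that may be technical.

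Libraries held 19471768 to 34557109 counted read pairs, and the 37 genes took 0.103% to 0.109% of them in p53n, 0.250% to 0.261% in the vehicle group and 0.170% to 0.186% in the inhibitor group. All 8 OPC markers were detected in every group, with a summed level of 8750 to 9228 CPM (counts scaled to library size) in p53n, 6558 to 6716 in the vehicle group and 4704 to 5201 in the inhibitor group. Under PDGF-BB 3 of these 8 markers rose and 4 fell. Sox10, a transcription factor of the oligodendrocyte lineage, was at 1.87 to 2.40 CPM in p53n, 284.5 to 317 CPM in the vehicle group and 452 to 470 CPM in the inhibitor group (log2 7.08 between vehicle and p53n). Gpr17, a receptor of committed precursors, was at 1805 to 1966, 119 to 139 and 51.2 to 64.3 CPM (log2 -3.85). The part of these marker differences in the results was not tested. Mitochondrial genes took 4.46% to 5.76% of the counts in p53n, 2.44% to 2.62% in the vehicle group and 1.34% to 1.54% in the inhibitor group, and their part was not tested either. The 5 microglial markers summed to at most 2.78 CPM and the 5 mural and fibroblast markers to at most 2.62 CPM. Markers of differentiating oligodendrocytes (8 genes) summed to 1944 to 2046 CPM in p53n, 454 to 502 CPM in the vehicle group and 583 to 608 CPM in the inhibitor group. For astrocyte markers (6 genes) the sums were 741 to 879, 377 to 412 and 292 to 300.1 CPM in the same groups, in that order. Neuronal markers (6 genes) summed to 2081 to 2153, 1621 to 1773 and 537 to 687 CPM. Abundant markers weigh most in such sums. Under PDGF-BB all 8 differentiating oligodendrocyte markers fell (median log2 -2.66), as did all 6 astrocyte markers (median -4.2). Of the neuronal markers, 1 rose and 4 fell (median -0.46). The part of these differences was not tested either. The 4 endothelial markers summed to at most 13.9 CPM. Mouse Pdgfb stayed at or below 0.240 CPM in all libraries, which says nothing of a transgene that these rows do not cover. Xist, the RNA of the inactive X chromosome, was at 2860 to 3257 CPM in p53n and 45.1 to 64.4 CPM in the vehicle group. The 4 Y-linked genes examined stayed below 1 CPM in p53n and reached 20.8 to 54.1 CPM in the vehicle group. In the inhibitor group Xist was at 2.72 to 16.8 CPM and the Y-linked genes at 2.41 to 18.03 CPM. The p53n and BB-p53n cultures therefore differ in sex-linked expression as well as in PDGF-BB and vehicle, and these differences cannot be told apart. The inhibitor group also lay below the vehicle group in Xist and in each of the Y-linked genes, without overlap. The part of this in the inhibitor results was not tested. In bulk RNA, a change in the share of cells that express a gene cannot be told apart from a change of RNA per cell.

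**Figure D1:**
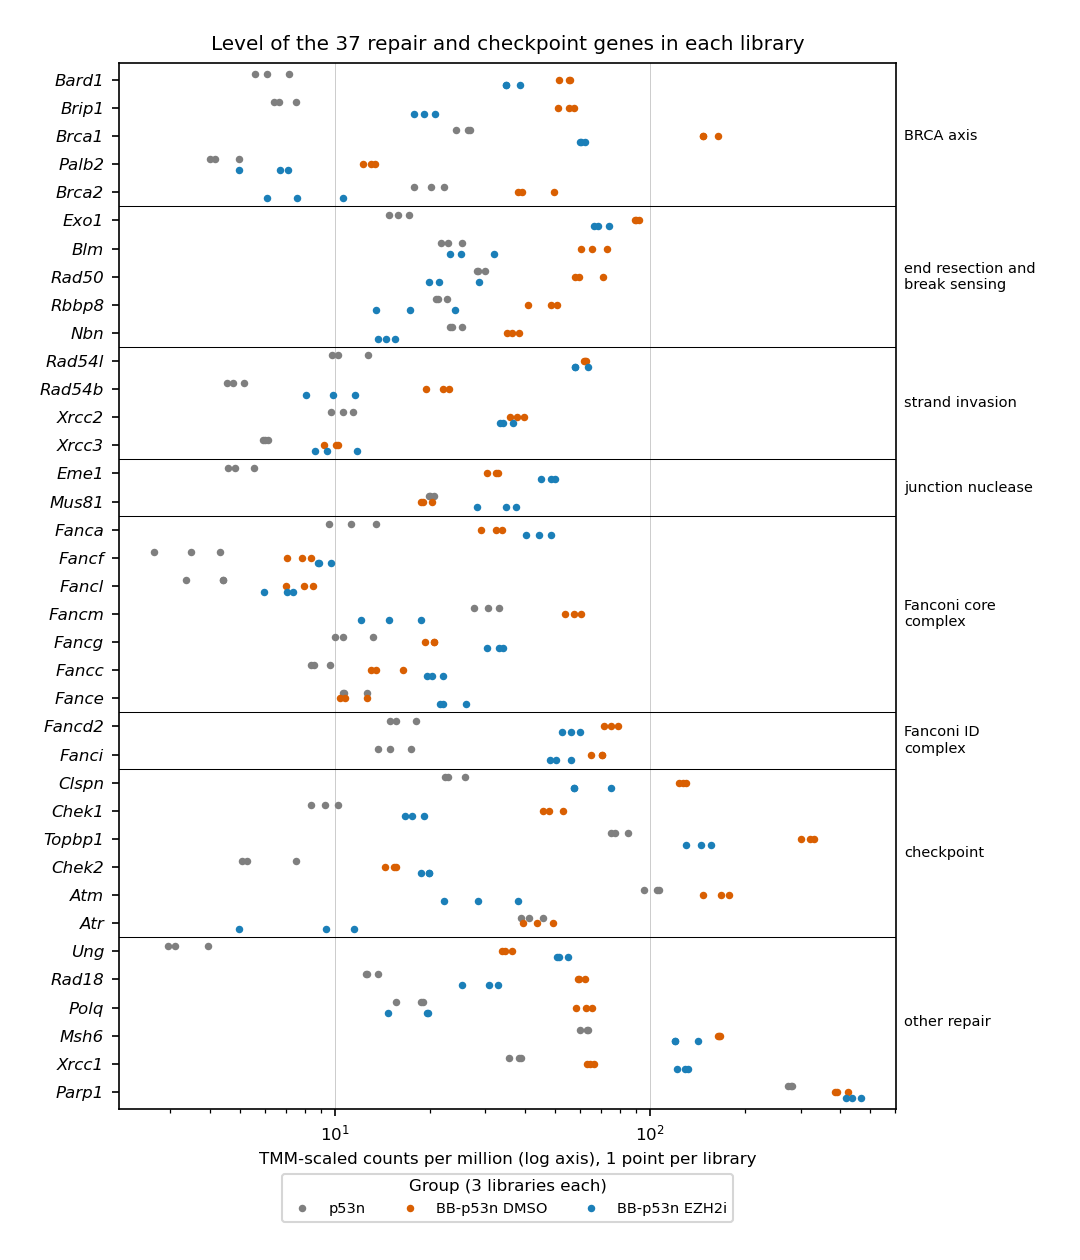
TMM-scaled CPM (log axis) of each of the 37 genes in each of the 9 libraries, 1 point per library, coloured by group and ordered by role. The BB-p53n DMSO points stand to the right of the p53n points for 34 genes, while Fance, Mus81 and Atr overlap.

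PDGF-BB-expressing cells had more message of nearly the whole set. Between the vehicle group and p53n, 34 of the 37 genes rose, none fell, and Fance, Mus81 and Atr did not pass the test (edgeR quasi-likelihood, Benjamini-Hochberg adjusted p below 0.05 over 17001 tested genes). All 37 genes passed the filter on low counts. Of all tested genes, 35.3% were called higher and 34.0% lower. The median log2 fold change was 1.47 over the 37 genes and -0.02 over all tested genes, and 25 of the 37 rose at least 2-fold, against 12.65% of all tested genes. The libraries of the 2 groups did not overlap for the 34 called genes. The share of all tested genes without overlap was not counted, so this describes the values and sets the members apart from no other genes. No member was lower at an unadjusted p below 0.05 or with DESeq2 either.

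The steepest rise belonged to Ung (chromosome 5, 114268447 to 114277384, GRCm39), the uracil DNA glycosylase that removes uracil from DNA. Its level was 2.95, 3.95 and 3.11 CPM in the p53n libraries and 34.7, 36.4 and 34.0 CPM in the vehicle libraries. The difference was 10.5-fold, a log2 fold change of 3.40 ± 0.11 (SE; adjusted p = 3.92e-16). Every vehicle library stood far above every p53n library. Rad18, Polq and Msh6 rose by smaller amounts: Rad18, the ubiquitin ligase of damage bypass, by 2.22, Polq, the polymerase of microhomology joining, by 1.80, and Msh6, a mismatch sensor, by 1.41 on the log2 scale. Xrcc1, the scaffold of strand-break repair, and Parp1, the break sensor that makes poly(ADP-ribose), rose least in this role, by 0.78 and 0.52.

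The BRCA axis rose as a whole (5 of 5 genes, median 2.57 on the log2 scale). Bard1 (chromosome 1, 71066657 to 71142305), whose product pairs with BRCA1 as a ubiquitin ligase, was at 5.55, 7.12 and 6.06 CPM in p53n and at 51.3, 55.4 and 55.5 CPM in the vehicle group, an 8.68-fold difference (log2 3.12 ± 0.10; adjusted p = 4.11e-16). Brip1, the BRCA1-bound helicase also known as FANCJ, went from 6.42, 6.62 and 7.53 CPM to 57.5, 50.9 and 55.3 CPM (log2 2.99 ± 0.10; adjusted p = 7.36e-16). Brca1 itself stood at 26.7, 24.1 and 26.3 CPM in p53n and at 163.8, 146.7 and 147.5 CPM in the vehicle group (log2 2.57 ± 0.08; adjusted p = 1.03e-16). For these 3 genes the p53n libraries lay close together and the vehicle libraries at least 5 times higher. Palb2, the bridge between BRCA1 and BRCA2, rose by 1.56 ± 0.14, and Brca2, a mediator of strand exchange, rose least of the axis, by 1.08 ± 0.16.

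Genes that trim and sense broken ends rose by a median of 1.12 (5 of 5 called). Exo1, the long-range resection nuclease, led with 15.8, 14.9 and 17.2 CPM in p53n against 89.4, 92.4 and 89.9 CPM in the vehicle group (log2 2.50 ± 0.08). Blm, the Bloom helicase, rose by 1.51 ± 0.11, Rad50 by 1.12 ± 0.11 and Rbbp8, which encodes the resection starter CtIP, by 1.11 ± 0.16. Nbn, the partner of RAD50 in the MRN complex, showed the smallest rise of the role, 0.61 ± 0.09.

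Among the strand invasion factors, Rad54l, a motor protein of homologous pairing, rose by 2.51 ± 0.10 and its relative Rad54b by 2.16 ± 0.13. Xrcc2 and Xrcc3, which support strand exchange, rose by 1.84 ± 0.09 and 0.71 ± 0.13. The junction nuclease divided into a rising and a flat subunit. Eme1, the regulatory subunit, was at 4.58, 5.54 and 4.80 CPM in p53n and at 32.4, 32.9 and 30.4 CPM in the vehicle group (log2 2.68 ± 0.10; adjusted p = 4.09e-15). Mus81, the catalytic subunit, was at 19.9, 20.6 and 19.98 CPM and at 20.4, 18.7 and 19.0 CPM in the same libraries (log2 -0.06 ± 0.10; adjusted p = 0.621). The Mus81 libraries of the 2 groups overlapped.

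Of the 7 genes of the Fanconi core complex, 6 rose and 1 did not pass, with a median of 0.91 and a range of -0.00 to 1.47. Fanca, a scaffold of the complex, rose most, from 11.2, 13.5 and 9.59 CPM to 33.7, 29.1 and 32.4 CPM (log2 1.47 ± 0.11). Fancf rose by 1.14, the ubiquitin ligase subunit Fancl by 0.94, the DNA translocase Fancm by 0.91, Fancg by 0.85 and Fancc by 0.69. Fance, the subunit that contacts FANCD2, was at 10.6, 12.6 and 10.6 CPM in p53n and at 10.4, 12.6 and 10.7 CPM in the vehicle group (log2 -0.00 ± 0.12; adjusted p = 0.979), with full overlap of the groups. The substrates rose together: Fancd2 by 2.22 ± 0.09 and Fanci by 2.15 ± 0.09.

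Of the 6 checkpoint genes, 5 rose. Clspn, the adaptor claspin that brings CHEK1 to ATR, was at 22.4, 22.8 and 25.8 CPM in p53n and at 129.6, 123.5 and 126.6 CPM in the vehicle group (log2 2.42 ± 0.10). Chek1, the effector kinase of the replication checkpoint, went from 8.36, 10.2 and 9.25 CPM to 53.1, 47.9 and 45.7 CPM (log2 2.40 ± 0.10). Topbp1, the activator of ATR, rose by 2.01 ± 0.08 and Chek2, the effector downstream of ATM, by 1.34 ± 0.13. The 2 apical kinases moved least. Atm rose by 0.68 ± 0.16 (adjusted p = 0.00337), and Atr, at 38.9, 41.2 and 45.7 CPM in p53n and 49.3, 39.4 and 43.8 CPM in the vehicle group, did not pass the test (log2 0.08 ± 0.20; adjusted p = 0.756).

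Mki67, a marker of cycling cells, also differed between the groups. It stood at 318 to 353 CPM in p53n, 879 to 1200 CPM in the vehicle group and 145 to 172 CPM in the inhibitor group. In the inhibitor group it thus lay below p53n. These levels are as counted, without removal of the trend with GC content and gene length described next. The part of Mki67 in the changes was not tested.

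A trend with GC content and gene length runs through these libraries, so each comparison was fitted again with the trend of each library removed. For PDGF-BB this changed little: 35 genes rose and none fell, against 35.5% and 36.0% of all tested genes, and the median was 1.44. Atr was the gene whose call changed, to a rise of 0.39 ± 0.10 (adjusted p = 0.00234). Fance (-0.12) and Mus81 (-0.11) again did not pass.

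**Figure D2:**
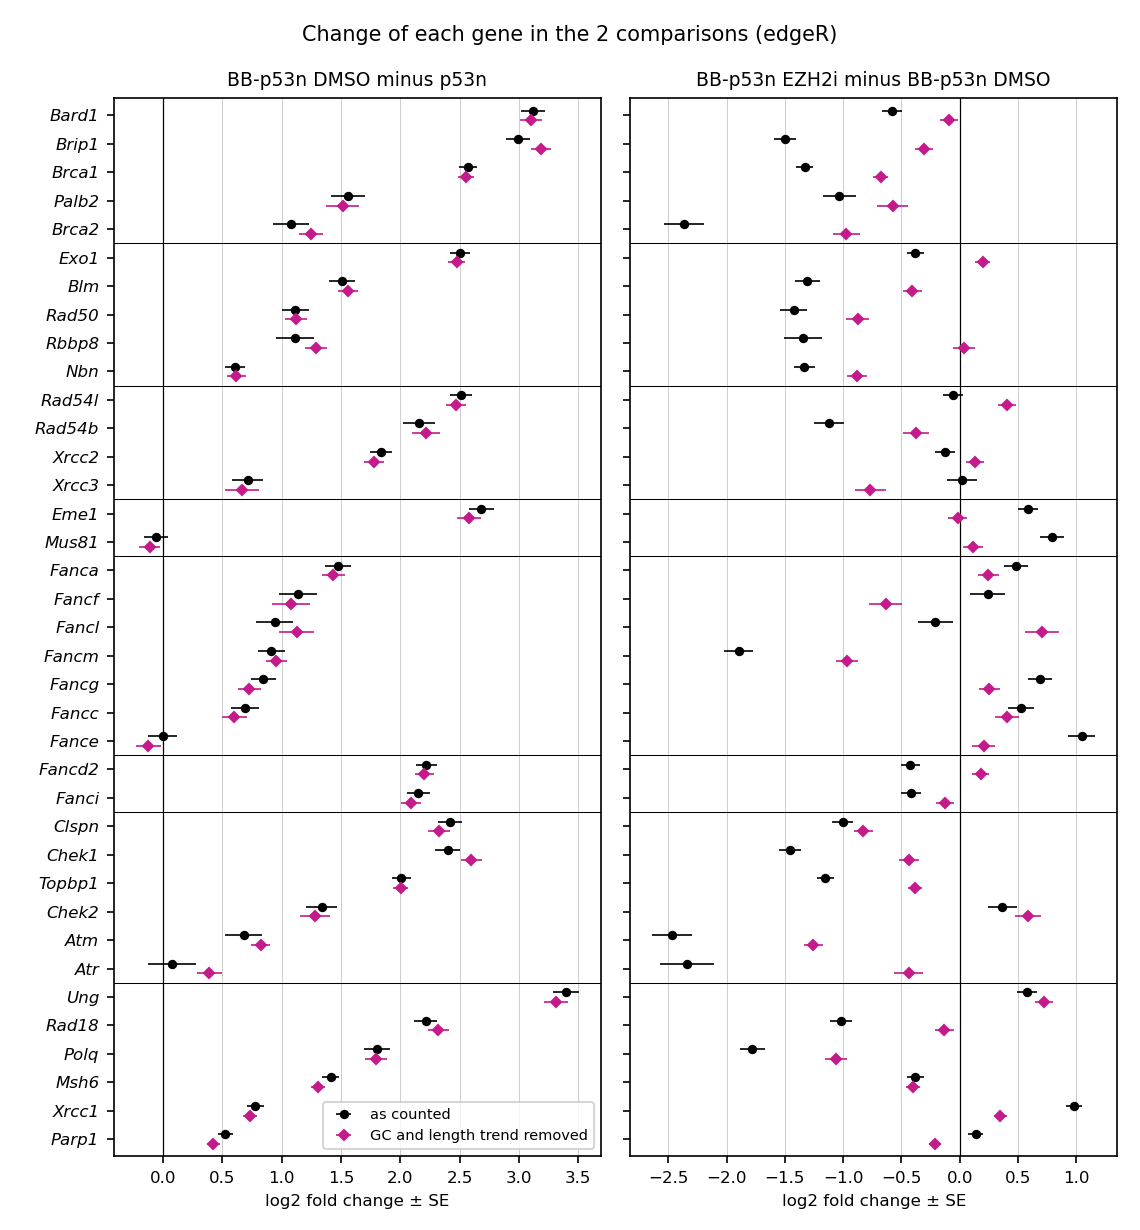
Log2 fold change with its standard error for each of the 37 genes, in BB-p53n DMSO against p53n (left) and in BB-p53n EZH2i against BB-p53n DMSO (right), as counted (black) and with the GC content and length trend removed (magenta). The 2 fits lie close together on the left, whereas on the right the fall of Atr shrinks from -2.34 to -0.44 and that of Brca2 from -2.37 to -0.97.

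Inhibition of EZH2 for 48 hours divided the set. Between the inhibitor group and the vehicle group, 22 genes fell, 9 rose and 6 did not pass the test in the counts as deposited. Of all tested genes, 35.6% were called lower and 37.3% higher. The median log2 fold change was -0.42 over the 37 genes and 0.02 over all tested genes, and 17 of the 37 fell at least 2-fold, against 19.5% of all tested genes. This comparison uses the same vehicle libraries as the PDGF-BB comparison, so the 2 sets of fold changes are not independent.

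The size of these changes followed the base composition of the genes. Across the 37 genes the Spearman correlation of the log2 fold change with GC content was 0.834, and with exon length it was -0.585. The same correlations over 12786 expressed genes were 0.73 and -0.428. All these values come from the same 6 libraries. The 12 members with the lowest GC content (40.8% to 44.9%) had a median of -1.40 with 11 falling and 0 rising. The 12 with the highest (48.9% to 61.4%) had a median of 0.51 with 2 falling and 7 rising. With the trend removed, the correlation over the 37 genes was 0.333 and that over all expressed genes 0.0222. The medians of the lowest and highest classes were then -0.42 and 0.05. The origin of the trend was not tested, and its removal also removes any change that truly follows GC content or length.

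**Figure D3:**
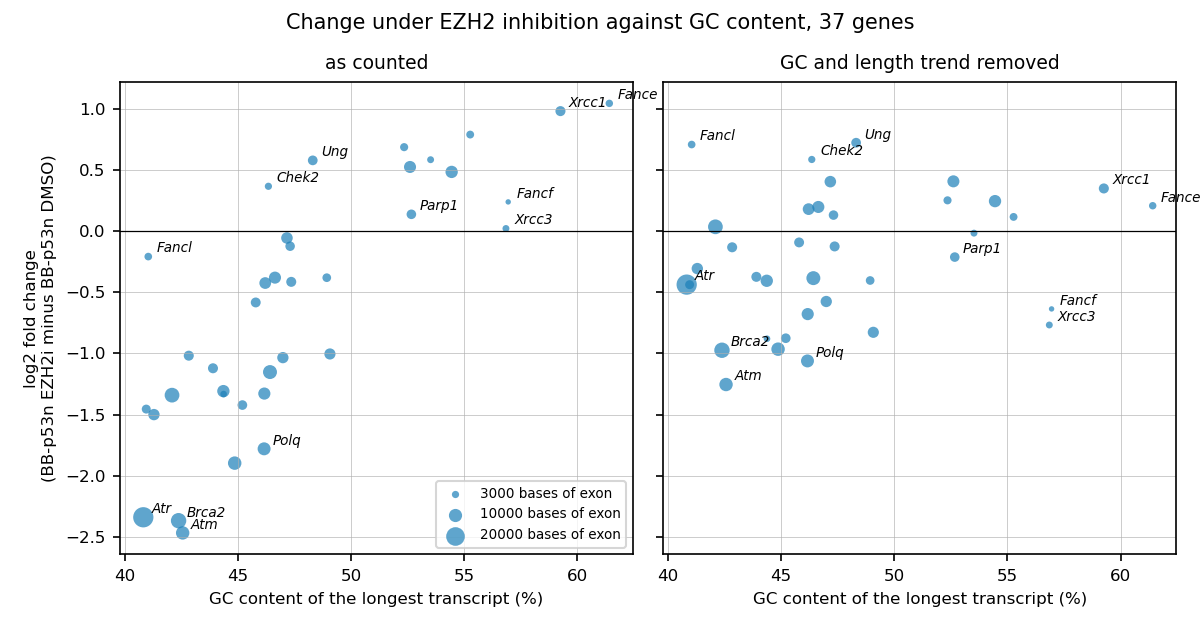
Log2 fold change of the 37 genes in BB-p53n EZH2i against BB-p53n DMSO, plotted against the GC content of the longest transcript (%), as counted (left) and with the GC content and length trend removed (right); point area is proportional to exon length. Fold changes climb from Atr at 40.8% GC to Fance at 61.4% GC on the left, and the slope is mostly gone on the right.

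With the trend removed, 19 genes fell, 10 rose and 8 did not pass, where 28.7% of all tested genes were called lower and 28.8% higher. The median was -0.21 against -0.01 over all tested genes. Just 2 of the 37 genes, Atm and Polq, then fell at least 2-fold, against 8.152% of all tested genes. The share of all tested genes called in both fits was not counted. Falls were called in both fits for 16 genes: Atm, Atr, Brca1, Brca2, Palb2, Brip1, Rad54b, Blm, Rad50, Nbn, Fancm, Chek1, Clspn, Topbp1, Polq and Msh6. Rises were called in both for 6 genes: Fanca, Fancc, Fancg, Chek2, Ung and Xrcc1. Both values are therefore given for the members described under the inhibitor.

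Checkpoint genes fell, apart from Chek2. Atm (chromosome 9, 53350449 to 53448040), the kinase that responds to broken ends, was at 178.1, 147.6 and 167.2 CPM in the vehicle group and at 38.0, 22.2 and 28.4 CPM in the inhibitor group. Its log2 fold change was -2.47 ± 0.17 (adjusted p = 5.21e-07), the largest fall of the set, and -1.25 ± 0.08 (adjusted p = 1.64e-10) with the trend removed. Atr, the kinase of stalled replication forks, was at 49.3, 39.4 and 43.8 CPM and then at 11.5, 4.95 and 9.32 CPM. The inhibitor libraries did not overlap with the vehicle libraries, and replicate 2 was the lowest of them. Its change was -2.34 ± 0.23 (adjusted p = 1.38e-05), and -0.44 ± 0.12 (adjusted p = 0.00506) with the trend removed.

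Chek1 fell by 1.46 ± 0.10, from 53.1, 47.9 and 45.7 CPM to 19.1, 16.7 and 17.6 CPM, and by 0.44 with the trend removed. Clspn fell by 1.00 ± 0.09 and by 0.83 ± 0.08 with the trend removed, so that it was among the members least touched by that step. Topbp1 fell by 1.15 and 0.38 in the 2 fits. Chek2 went the other way: 14.4, 15.6 and 15.4 CPM with vehicle and 19.9, 19.9 and 18.7 CPM with the inhibitor, a rise of 0.37 ± 0.12 (adjusted p = 0.00993), and 0.59 ± 0.11 with the trend removed.

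All 5 BRCA axis genes fell in the counts as deposited, with a median of -1.33. Brca2 went from 49.4, 39.3 and 38.0 CPM to 10.6, 6.07 and 7.56 CPM (log2 -2.37 ± 0.17; adjusted p = 2.89e-08), and changed by -0.97 ± 0.12 with the trend removed. Brca1 went from 163.8, 146.7 and 147.5 CPM to 59.9, 62.1 and 60.5 CPM (log2 -1.33 ± 0.07), and changed by -0.68 ± 0.06 with the trend removed. No inhibitor library of either gene reached the level of a vehicle library. Brip1 changed by -1.50 and -0.31 in the 2 fits and Palb2 by -1.03 and -0.57. Bard1 fell by 0.58 as counted, and its value of -0.09 with the trend removed did not pass (adjusted p = 0.321).

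End resection and break sensing genes fell as counted (5 of 5, median -1.33), and 3 of the 5 fell with the trend removed. Rad50 and Nbn, partners in the MRN complex, changed by -1.42 and -1.33, and by -0.88 each with the trend removed. Blm changed by -1.31 and -0.41. Rbbp8 fell by 1.34 as counted and was at 0.04 with the trend removed (adjusted p = 0.77). Exo1 fell by 0.38 as counted and was called higher, at 0.20, with the trend removed. That last call depended on the scaling, since it was lost (adjusted p = 0.194) when the scaling factors of the uncorrected counts were kept.

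Among the strand invasion factors, Rad54b changed by -1.12 ± 0.13 and -0.37 ± 0.11. Rad54l, at 62.4, 61.7 and 61.9 CPM with vehicle and 63.7, 57.5 and 57.8 CPM with the inhibitor, did not pass as counted (-0.06; adjusted p = 0.568) and was 0.41 higher with the trend removed. Xrcc2 did not pass in either fit (-0.12 and 0.13), though it was called lower under some alternatives, between -0.23 and -0.20. Xrcc3, a GC-rich gene, was at 0.02 as counted and at -0.77 ± 0.13 with the trend removed. The nuclease subunits rose as counted, Mus81 from 20.4, 18.7 and 19.0 CPM to 28.3, 37.5 and 34.9 CPM (log2 0.79 ± 0.10; adjusted p = 5.36e-07) and Eme1 from 32.4, 32.9 and 30.4 CPM to 50.0, 45.0 and 48.4 CPM (log2 0.59 ± 0.09; adjusted p = 3.47e-06). Neither passed with the trend removed (0.12 and -0.02).

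In the Fanconi core complex 4 genes rose and Fancm fell as counted. Fance showed the largest rise of the 37 genes, from 10.4, 12.6 and 10.7 CPM to 21.6, 22.0 and 26.1 CPM (log2 1.05 ± 0.12; adjusted p = 7.87e-08), yet its value of 0.21 with the trend removed did not pass (adjusted p = 0.0765). Fancg went from 19.4, 20.6 and 20.5 CPM to 30.4, 33.0 and 34.1 CPM (log2 0.69 ± 0.10; adjusted p = 3.73e-06), with 0.25 in the other fit. Fancc rose by 0.53 and 0.41, and Fanca by 0.49 and 0.25. The calls of Fanca and Fancg with the trend removed were lost (adjusted p = 0.158 each) when the uncorrected scaling factors were kept. Fancm went from 60.5, 53.6 and 57.5 CPM to 18.8, 12.1 and 14.8 CPM (log2 -1.90 ± 0.12; adjusted p = 2.08e-10), with -0.96 ± 0.09 in the other fit. Fancf and Fancl did not pass as counted (0.24 and -0.21) and were called in opposite directions with the trend removed (-0.64 and 0.71). Fancl shares 48.6% of its exon bases with Vrk2 and another overlapping gene. The counting used no strand option, so reads of overlapping genes cannot be told apart and its count is uncertain. Rad54b, Fancc, Fanci, Rad54l, Fancf, Eme1 and Fanca share 10.5% to 35.9% of their exon bases with other genes, so their counts are uncertain too. Fsbp, which overlaps with Rad54b, lies on the same strand, so a strand option would not separate their reads.

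The FANCD2-FANCI pair fell slightly as counted, by 0.42 and 0.41. With the trend removed Fanci did not pass (-0.12) and Fancd2 was called higher at 0.18, a call lost with the uncorrected scaling factors (adjusted p = 0.338). Of the other repair genes, Polq fell from 65.2, 58.2 and 62.6 CPM to 19.7, 14.7 and 19.6 CPM (log2 -1.78 ± 0.11; adjusted p = 1.77e-11), and by 1.06 ± 0.09 with the trend removed. Msh6 fell by about the same amount in both fits, 0.38 and 0.40. Xrcc1 rose from 62.8, 66.4 and 64.6 CPM to 121.7, 132.1 and 129.2 CPM (log2 0.98 ± 0.07; adjusted p = 1.20e-10), and by 0.35 ± 0.06 with the trend removed. Ung rose to 50.7, 51.5 and 54.9 CPM (log2 0.58 ± 0.09), and by 0.72 ± 0.08 with the trend removed. Rad18 fell by 1.02 as counted and did not pass with the trend removed (-0.13). Parp1 did not pass as counted (0.14) and was at -0.21 with the trend removed.

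Set directly against p53n, the inhibitor-treated cells still held more message of most members. In the inhibitor group, 28 genes were higher and 6 lower than in p53n, where 40.3% and 41.7% of all tested genes were, and the median was 1.04. The 6 lower genes were Brca2, Fancm, Rad50, Nbn, Atm and Atr. With the trend removed, 30 were higher and 2 lower (Nbn at -0.26 and Atm at -0.43), where 38.1% and 40.1% of all tested genes were, and the median was 1.33. Ung stood highest in both fits, at 3.98 and 4.04. This comparison reuses the libraries of the other 2 and is no separate evidence for them.

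Ratios between genes whose products work as partners were taken within each library, per base of exon, so that library scaling drops out. With 3 libraries against 3, the exact permutation test (two-sided) cannot go below p = 0.1, and the 8 ratios could reach no adjusted p under 0.05. The largest shift was that of Mus81 to Eme1. Its log2 ratio was 1.75, 1.53 and 1.69 in p53n and -1.04, -1.18 and -1.05 in the vehicle group, a difference of -2.75 (exact p = 0.1; adjusted 0.114), so that the regulatory subunit went from the scarcer to the more abundant message. With the inhibitor the ratio was -1.19, -0.63 and -0.84, which overlapped with the vehicle libraries.

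Chek1 to Chek2 stood at -0.47, 0.38 and 0.19 in p53n, at 1.26, 0.99 and 0.94 in the vehicle group and at -0.69, -0.88 and -0.72 in the inhibitor group. The balance thus tipped toward Chek1 with PDGF-BB (1.03) and toward Chek2 with the inhibitor (-1.83, or -1.02 with the trend removed; exact p = 0.1 each). Brca1 to Bard1 went from a mean of 1.46 ± 0.26 (SD, n = 3) in p53n to 0.90 ± 0.15 in the vehicle group and 0.16 ± 0.10 in the inhibitor group, with no overlap between any 2 groups. Rad54l to Rad54b rose from 0.76 ± 0.14 to 1.12 ± 0.12 and 2.20 ± 0.20. Rad54b shares 35.9% of its exon bases with overlapping genes, which touches this ratio.

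Brca2 to Palb2 was 1.30 ± 0.24, 0.81 ± 0.17 and -0.54 ± 0.20 in the 3 groups, and its last step shrank from -1.36 to -0.40 with the trend removed. Atr to Atm stayed between -3.35 and -2.42 in the 9 libraries. Its difference under PDGF-BB was -0.61, and under the inhibitor 0.06 as counted and 0.76 with the trend removed. Rad50 to Nbn moved by 0.50 with PDGF-BB and by -0.11 with the inhibitor (exact p = 0.7). Fancd2 to Fanci had the smallest range of the 8 ratios, between -0.62 and -0.19 in all libraries, with differences of 0.06 and -0.01 (exact p = 0.8 each). With the trend removed its difference under the inhibitor became 0.31.

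**Figure D4:**
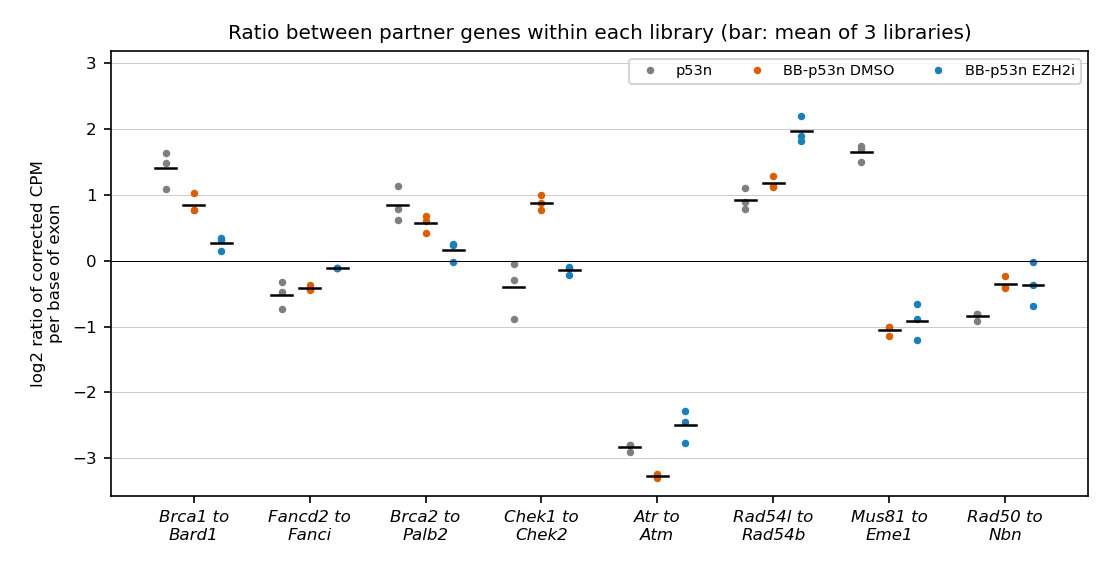
Log2 ratio between partner genes within each library, per base of exon and with the GC content and length trend removed, 1 point per library and a bar at the mean of each group. Mus81 to Eme1 changes sign between p53n and the BB-p53n groups, and Fancd2 to Fanci stays between -0.74 and -0.11.

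Per kilobase of exon in the counts as deposited, Parp1 was the most abundant member in every group, at 52.6 ± 0.7, 75.7 ± 4.0 and 83.4 ± 4.6 CPM per kilobase (SD, n = 3) in p53n, the vehicle group and the inhibitor group. Msh6 followed at 14.3 ± 0.5, 38.0 ± 0.3 and 29.2 ± 2.8. Brca1 ranked 11 of 37 in p53n, 4 in the vehicle group and 14 in the inhibitor group. Ung climbed from rank 36, at 0.611 ± 0.099 CPM per kilobase, to rank 21 and then to rank 6, at 9.58 ± 0.40. Atm dropped from rank 3 in p53n to rank 27 in the inhibitor group, and Atr was last there, at 0.363 ± 0.140. Atm ranked 5, 9 and 22 in the 3 groups with the trend removed, at 6.98 ± 0.25, 12.3 ± 0.6 and 5.13 ± 0.86 CPM per kilobase. Atr was then at 0.980 ± 0.038, 1.28 ± 0.06 and 0.925 ± 0.259, the scarcest member in both BB-p53n groups. Brca1 then ranked 13, 5 and 9, and Ung 36, 21 and 8. Palb2 was the scarcest member in p53n (0.596 ± 0.070) and Fancc in the vehicle group (1.71 ± 0.22), where Palb2 (1.75 ± 0.08) did not differ from it beyond the spread. The length used is that of all exons of all isoforms, so genes with long rare exons such as Atr (23629 bases) are understated.

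Replicates varied more for some members in the inhibitor group. The median coefficient of variation over the 37 genes was 8.29% in p53n, 5.22% in the vehicle group and 8.98% in the inhibitor group. It was above 20% for 6 members in the inhibitor group: Atr (38.7%), Rbbp8 (29.0%), Brca2 (28.5%), Atm (27.0%), Fancm (22.1%) and Rad50 (20.2%). In p53n it was above 20% for Fancf (23.5%), with 1691 bases of exon the shortest member, and Chek2 (22.7%), and in the vehicle group for none (at most 14.7%). In the inhibitor group, 2 members were above 20% with the trend removed. Over all genes compared, the median chi-square between replicate pairs was 2.86 to 5.1 in the inhibitor group and 1.49 to 2.43 in the others.

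Further genes of the same pathways, from lists that hold none of the 37, were counted in the same way. These lists were also chosen with earlier results of these data known. Slx4 is counted in both the homologous recombination and the Fanconi list. Of 39 further homologous recombination genes, 27 rose and 4 fell under PDGF-BB (median 0.80), where 35.3% and 34.0% of all tested genes did. Rmi2, a partner of BLM, rose most, by 3.19. Of 17 further Fanconi genes, 12 rose and 3 fell (median 0.98), led by Uhrf1 (3.01), while Mad2l2 fell most (-1.47). Of 26 further checkpoint and damage signalling genes, 17 rose and 4 fell (median 0.90), with Pkmyt1, an inhibitory kinase of CDK1, at 2.69 and Shld2 at -0.70.

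The lists of other repair routes had smaller medians. End joining genes counted 2 risen and 2 fallen of 13 (median 0.01), with Xrcc6, the KU70 subunit, at 0.82 and Parp3 at -1.34. Mismatch repair genes counted 3 and 1 of 6 (median 0.18), base excision repair genes 9 and 4 of 17 (median 0.23), and nucleotide excision repair genes 7 and 7 of 15 (median 0.10). Fen1, the flap nuclease, rose most among the base excision genes (2.56) and Tdg fell most (-2.87). Mlh3 fell most among the mismatch repair genes (-1.22) and Xpa among the nucleotide excision genes (-1.59). Of 19 E2F and G1/S factors, 15 rose and 3 fell (median 0.96), led by E2f1 (3.25). The list mixes drivers of transcription at the start of replication with restraints on it and other cell cycle genes. Rb1, a restraint on E2F, fell by 0.75. No difference between the 37 genes and any of these lists was tested.

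Under the inhibitor the further lists held both risen and fallen genes. Of all tested genes, 37.3% were called higher and 35.6% lower as counted, and 28.8% and 28.7% with the trend removed. Further homologous recombination genes counted 15 risen and 18 fallen (median -0.08), and 16 and 10 with the trend removed (median -0.02). Dmc1, a meiotic recombinase with a mean below 1 CPM in each group, had the largest called fall as counted and did not pass with the trend removed (adjusted p = 0.0925), and Zswim7 rose most (1.09, and 0.33 with the trend removed). Further Fanconi genes counted 9 risen and 6 fallen (median 0.39), and 6 and 3 with the trend removed (median 0.13), between Mad2l2 at 1.12 and Fan1 at -1.17 as counted. These were 0.28 and -1.36 with the trend removed. Further checkpoint genes counted 10 and 14 (median -0.25), and 9 and 6 with the trend removed (median 0.06), between Shld1 at 1.49 and Rif1 at -2.68 as counted. They became 1.41 and -1.10 with the trend removed.

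End joining genes counted 4 risen and 8 fallen as counted, and 2 and 7 with the trend removed (median -0.15). Prkdc, the catalytic subunit of DNA-PK, fell by 1.91 and 0.64 in the 2 fits, and Poll rose by 1.10 and 0.23. Mismatch repair genes counted 0 and 4, and 2 and 2 with the trend removed. Pms1 fell by 1.32 as counted and did not pass with the trend removed (-0.09; adjusted p = 0.567). Base excision genes counted 10 and 3 (6 and 2 with the trend removed), between Apex1 (0.86, and 0.35 with the trend removed) and Mbd4 (-1.14 and -0.41). Nucleotide excision genes counted 7 and 7 (5 and 7), between Gtf2h4 (0.95 and 0.21) and Uvssa (-1.73 and -0.96). E2F and G1/S factors counted 7 and 8 (6 and 5), between Ccne1 (1.13 and 0.58) and Rb1 (-1.86 and -0.77).

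**Figure D5:**
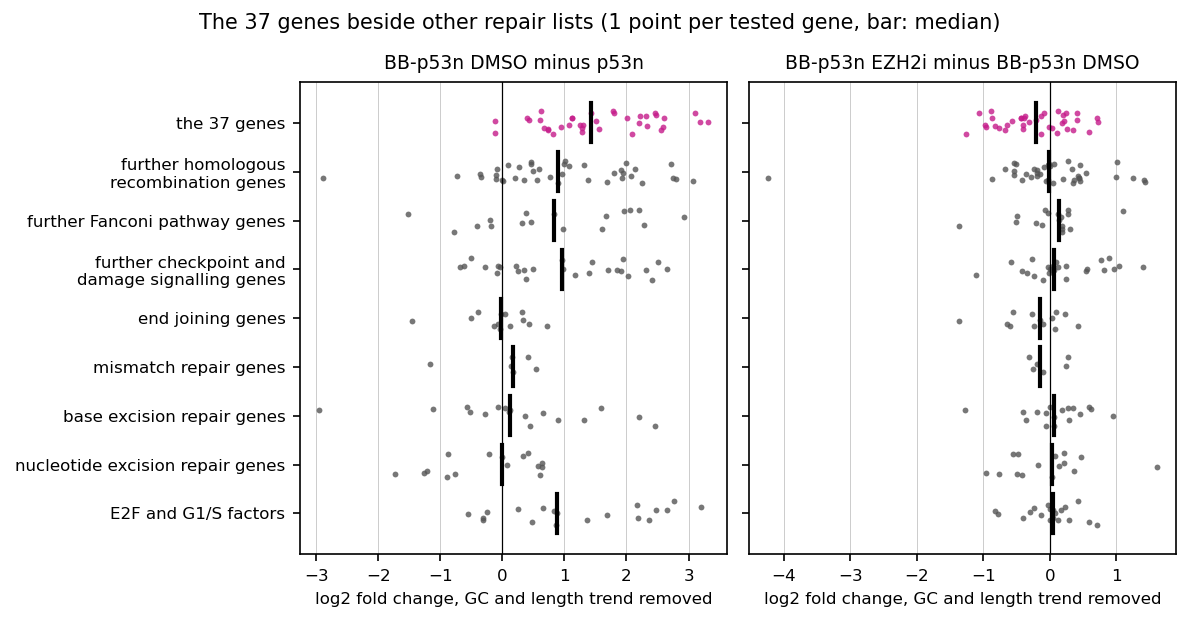
Log2 fold change of every tested gene of each list with the GC content and length trend removed, in BB-p53n DMSO against p53n (left) and BB-p53n EZH2i against BB-p53n DMSO (right), with a bar at each median. On the left the 37 genes have a median of 1.44, and the end joining and nucleotide excision repair lists have medians of -0.02 and 0.00.

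Promoter sequences were available in RefSeq (GRCm38.p6) for 30 of the 37 genes, as 250 bases before to 50 bases after the annotated start. They were searched on both strands for 2 forms of the E2F site (TTTGGCGC or TTTCGCGC). The CHR element of genes expressed late in the cell cycle (TTTGAA) and the CCAAT box of NF-Y were searched too. Other forms of the E2F site were not searched, so a gene counted as without E2F letters may hold one. No match of one motif overlapped with a match of another in these 30 genes. The E2F letters were found in 2 of 30 genes, Clspn and Topbp1 (6.67%), and in 0.813% of the 32851 promoters in the table. CHR letters were found in 3 of 30, Bard1, Polq and Eme1 (10%), against 17.9% of all promoters. CCAAT boxes were found in 16 of 30 (53.3%), against 37.4%. A member was counted if any of its promoter entries matched, and some members have several. The shares of all promoters are of single entries, so the 2 kinds of share are unlike measures.

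The median PDGF-BB log2 fold change was 2.21 in the 2 genes with E2F letters and 1.38 in those without, 2.68 in the 3 with CHR letters and 1.34 in those without, and 1.38 with a CCAAT box and 1.91 without. No difference between them was tested. The 6 promoters shown hold the 250 bases before the start, with matched letters in capitals. Ung and Bard1 rose most among genes with an entry, Fance and Mus81 changed least, and Topbp1 and Brip1 were chosen after their matches were seen, for an E2F match and for 3 CCAAT boxes on the other strand.
Ung: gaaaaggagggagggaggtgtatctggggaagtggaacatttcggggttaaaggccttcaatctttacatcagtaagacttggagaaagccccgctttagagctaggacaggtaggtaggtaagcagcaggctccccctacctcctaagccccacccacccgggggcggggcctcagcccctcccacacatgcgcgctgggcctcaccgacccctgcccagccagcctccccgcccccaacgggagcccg
Bard1: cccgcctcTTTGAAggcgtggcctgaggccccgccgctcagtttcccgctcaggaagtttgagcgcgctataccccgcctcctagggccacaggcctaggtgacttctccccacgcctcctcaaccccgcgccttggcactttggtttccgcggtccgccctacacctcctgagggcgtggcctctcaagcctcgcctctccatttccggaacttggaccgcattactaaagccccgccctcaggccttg
Fance: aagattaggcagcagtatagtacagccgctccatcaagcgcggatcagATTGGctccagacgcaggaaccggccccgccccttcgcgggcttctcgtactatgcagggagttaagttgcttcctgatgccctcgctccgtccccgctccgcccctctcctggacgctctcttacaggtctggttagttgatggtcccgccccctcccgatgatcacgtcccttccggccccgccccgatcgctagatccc
Mus81: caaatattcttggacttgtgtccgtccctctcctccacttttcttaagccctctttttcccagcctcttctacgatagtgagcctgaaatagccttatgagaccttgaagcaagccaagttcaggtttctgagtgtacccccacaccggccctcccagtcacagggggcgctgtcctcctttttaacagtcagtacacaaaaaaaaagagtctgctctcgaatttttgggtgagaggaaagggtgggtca
Topbp1: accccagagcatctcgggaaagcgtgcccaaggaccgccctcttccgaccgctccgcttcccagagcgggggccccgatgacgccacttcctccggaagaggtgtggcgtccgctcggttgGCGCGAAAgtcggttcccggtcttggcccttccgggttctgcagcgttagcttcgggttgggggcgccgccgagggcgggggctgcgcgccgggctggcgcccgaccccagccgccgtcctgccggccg
Brip1: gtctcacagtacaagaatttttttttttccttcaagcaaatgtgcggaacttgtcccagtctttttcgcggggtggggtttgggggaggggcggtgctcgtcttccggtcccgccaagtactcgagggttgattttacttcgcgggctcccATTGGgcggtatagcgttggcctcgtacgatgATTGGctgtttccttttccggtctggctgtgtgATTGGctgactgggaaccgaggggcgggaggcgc
They lie at chr5:114130185-114130434 (plus strand, Ung), chr1:71102973-71103222 (minus strand, Bard1), chr17:28313280-28313529 (plus strand, Fance), chr19:5488380-5488629 (minus strand, Mus81), chr9:103305077-103305326 (plus strand, Topbp1) and chr11:86201194-86201443 (minus strand, Brip1). The promoter of Ung, the gene with the steepest rise, and that of Mus81, which did not pass the test, held none of the letters searched in these stretches. The match in Topbp1 reads GCGCGAAA, the E2F letters on the other strand, and starts 129 bases before the start. Its level was 75.0, 77.2 and 85.3 CPM in p53n and 332.0, 301.8 and 321.9 CPM in the vehicle group. The boxes of Brip1 start 99, 67 and 34 bases before the start. A match of letters is a description of the sequence and shows no binding.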

How the data were processed

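RNA was measured as polyadenylated-message libraries of 9 samples in 3 groups of 3. The deposited values are raw counts of read pairs per gene, made by the authors with featureCounts 1.6.3 (Subread) on GRCm39 with Ensembl release 108, per the file headers, counting exons of pairs with both ends mapped at a quality of at least 20 and with no strand option. Trimmomatic is named in the submitters' processing notes. Lengths are the exon bases given in the same table. Gene symbols and GC content came from GENCODE M21 on GRCm38 by gene identifier (91.4% of the 56980 identifiers).

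The counts of all 9 libraries were fitted together in edgeR 4.0.16 (R 4.3.3) with TMM scaling, filterByExpr, a robust quasi-likelihood fit and the group as the only term. P-values were Benjamini-Hochberg adjusted over 17001 genes and called at 0.05. SE is the log2 fold change divided by the root of the F statistic. The second fit removed each library's smooth trend (splines on GC content and log2 exon length) through offsets and computed TMM again. Both fits were run on simulated counts that held no trend with GC content or length, so the removal of such a trend was not tested. Alternatives were RLE scaling, other filters, DESeq2 1.42.0, fewer groups, the replicate block, scaling without sex and mitochondrial chromosomes and each library left out.

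The gene list, roles and further lists were chosen with earlier results of these data known. The named members were the 5 with the largest called rise and fall in each comparison, those whose call differed between fits and those that passed in neither, the rest being given more briefly. Of each further list, the called gene that moved most in each direction is named, and some of these are not reported here. Same-numbered libraries did not deviate together throughout (correlations -0.229 to 0.395), so replicate numbers were not taken as pairs.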

Additional observations from a re-analysis of the deposited data

How the results depend on the processing

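The PDGF-BB counts of 34 members higher and 0 lower held under every alternative run, except that 35 were higher once the GC content and length trend was removed (DESeq2: 34 higher and 0 lower). The count lower in BB-p53n EZH2i than in p53n went from 6 to 2 without the trend, with either scaling and with the replicate block. Without the trend 9 members reversed in sign under the inhibitor, given here as the value with new scaling, with the scaling kept from before its removal (an alternative chosen after seeing the data), and with the replicate block: Rad54l 0.406, 0.307 and 0.405; Exo1 0.199, 0.10 and 0.198; Fancd2 0.181, 0.081 and 0.180; Fancf -0.636, -0.733 and -0.645; Fancl 0.709, 0.611 and 0.710; Xrcc3 -0.767, -0.864 and -0.779; Parp1 -0.211, -0.311 and -0.212; Eme1 -0.016, -0.114 and -0.017. For Rbbp8 these were 0.036, -0.060 (no reversal) and 0.023. The ratio of Fancd2 to Fanci reversed to 0.306. The replicate block alone changed no count (34 and 0, 9 and 22, 28 and 6). Leaving out 1 library gave 34 higher for PDGF-BB, 9 to 10 higher and 22 to 23 lower for the inhibitor, and 28 to 29 higher and 5 to 7 lower against p53n. It changed the inhibitor call of Xrcc2 (-0.196 without p53n replicate 3; adjusted p = 0.0448) and of Parp1 (without BB-p53n DMSO replicate 2 or EZH2i replicate 3). The call of Chek2 was lost without a filter on low counts (adjusted p = 0.061). Xrcc2, at -0.12 and not called in the 9-library fit, was also called lower without the filter (-0.23; adjusted p = 0.0447), with the 2 groups alone in the fit (-0.21; 0.0306) and when sex-chromosome and mitochondrial genes were left out (-0.21; 0.0331). The cause of these changes was not tested. The lowest value of a member in any library was 2.66 CPM (Fancf in p53n replicate 2), where 3 counts correspond to 0.129 CPM.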
